A study of Homo sapiens with 8 samples.

Results

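The regions described here are stretches of accessible chromatin at the boundaries of protein-coding genes that kept a listed peak in all 8 samples of the study. They were chosen by a rule that used the deposited peak lists themselves: overlapping peaks of the 8 lists were merged (1 bp of overlap, chromosomes 1 to 22 and X), and a region was kept when all 8 lists had a peak in it and it came within 1 kb of the start or the end of a protein-coding gene in RefSeq's annotation of GRCh38.p14. There were 9291 such regions among 69078 merged regions. Presence in all lists was therefore used in the choice and is no result, and what is compared below is the length of each region that the peaks of a sample covered, the position of the peak edges relative to the gene start, and the sequence and genes of the regions.

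The study mapped open chromatin by ATAC-seq, which tags exposed DNA with a transposase, in H1975 and HCC44, both established human non-small cell lung cancer lines whose genotype is labelled WT. Cells of each line received either ACBI1 or its solvent, DMSO, for 96 h, with 2 samples in each of the 4 groups. ACBI1 is a bifunctional degrader that recruits the VHL ubiquitin ligase to the alternative motor ATPases of SWI/SNF (BAF) remodelling complexes, SMARCA2 and SMARCA4, and to the PBRM1 subunit. The dose, 1 mM, is given only as labelled. Levels of the degraded proteins were not analysed here. Nothing in the labels says that the samples of a group came from separate cultures, so p-values measure only the spread between these samples, which may be technical.

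In mammals the promoters of broadly used genes lie mostly in CpG islands, stretches of DNA that keep their CpG dinucleotides and are usually unmethylated. Such promoters hold a nucleosome-depleted region around the transcription start that appears as an ATAC-seq peak in most cell types, whereas distal enhancers are open in fewer cell types. SWI/SNF complexes use ATP to slide or evict nucleosomes and act at enhancers and at promoters.

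The DNA just upstream of the gene start is shown for the regions on which the description turns: those with the strongest peaks (BRMS1L, WDR89 and FIS1), one of the weakest (KCND1), 3 of the 6 with the strongest scaled narrowing with ACBI1 (ANXA11, SLC1A5 and CKAP4) and the genes of 2 ACBI1 targets. Each sequence is RefSeq's GRCh38.p14 reference from -150 to -1 relative to the start, 5′ to 3′ on the strand of the gene, in a window that no annotated gene covers. Capitals mark matches, on either strand, to the CCAAT box (CCAAT), the GC box (GGGCGG), an ETS core with flanks (CCGGAAG) or another motif of the search described further on.
BRMS1L (chr14:35826188-35826337, plus strand): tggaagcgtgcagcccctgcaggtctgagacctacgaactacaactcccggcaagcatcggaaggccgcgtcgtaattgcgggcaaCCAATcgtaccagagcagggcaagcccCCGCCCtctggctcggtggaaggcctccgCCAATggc
WDR89 (chr14:63641872-63642021, minus strand): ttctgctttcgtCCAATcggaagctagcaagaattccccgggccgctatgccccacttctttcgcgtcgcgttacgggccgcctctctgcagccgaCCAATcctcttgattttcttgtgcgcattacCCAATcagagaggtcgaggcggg
FIS1 (chr7:101245082-101245231, minus strand): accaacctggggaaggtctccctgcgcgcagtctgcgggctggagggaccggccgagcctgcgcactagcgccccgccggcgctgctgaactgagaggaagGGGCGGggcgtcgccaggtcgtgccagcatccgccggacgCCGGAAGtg
KCND1 (chrX:48971845-48971994, minus strand): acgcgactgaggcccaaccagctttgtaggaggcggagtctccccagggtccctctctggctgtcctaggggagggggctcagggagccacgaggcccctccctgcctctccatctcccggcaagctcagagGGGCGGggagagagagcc
ANXA11 (chr10:80205809-80205958, minus strand): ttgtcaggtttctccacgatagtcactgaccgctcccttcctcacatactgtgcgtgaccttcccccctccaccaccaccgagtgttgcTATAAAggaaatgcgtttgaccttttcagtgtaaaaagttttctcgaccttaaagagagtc
SLC1A5 (chr19:46788595-46788744, minus strand): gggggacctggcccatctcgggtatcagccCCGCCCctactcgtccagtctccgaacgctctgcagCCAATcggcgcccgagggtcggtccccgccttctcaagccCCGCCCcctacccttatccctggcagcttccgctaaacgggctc
CKAP4 (chr12:106248021-106248170, minus strand): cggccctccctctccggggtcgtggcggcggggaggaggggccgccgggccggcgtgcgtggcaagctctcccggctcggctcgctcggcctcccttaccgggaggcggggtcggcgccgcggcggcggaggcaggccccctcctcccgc
SMARCA2 (chr9:2015197-2015346, plus strand): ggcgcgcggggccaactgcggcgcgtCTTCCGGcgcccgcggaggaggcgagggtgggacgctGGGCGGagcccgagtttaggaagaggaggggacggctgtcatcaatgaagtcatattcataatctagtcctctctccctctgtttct
SMARCA4 (chr19:10960880-10961029, plus strand): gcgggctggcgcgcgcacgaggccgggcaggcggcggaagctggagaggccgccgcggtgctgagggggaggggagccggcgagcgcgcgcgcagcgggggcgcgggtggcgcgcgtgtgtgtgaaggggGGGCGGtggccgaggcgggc
The BRMS1L and WDR89 stretches hold 3 matches each, which include the CCAAT box, while the KCND1 stretch holds 1 GC box and the CKAP4 stretch holds 0 matches. The ANXA11 stretch holds a TATA box (TATAAA). Over the 300 bases of each promoter, G and C made up 83% of the CKAP4 and 81.3% of the SMARCA4 sequence, against 59.7% for BRMS1L 59.3% for WDR89 and 51.7% for ANXA11.

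The 8 lists held between 22115 and 50323 peaks on the chromosomes used, fewer with ACBI1 than with DMSO in both lines. Sequencing depth is unknown, since the lists carry no read numbers, and a missing peak is not a measurement of closed chromatin. H1975 ACBI1 replicate 2 stood apart from its replicate, with the fewest peaks and the shortest median covered length. The H1975 changes in edge position and in width over all retained boundary regions are therefore also given without it. The H1975 width changes of gene lists, single regions and regions away from gene boundaries are not, and may rest on it. Of the marker genes looked up, the 5 epithelial ones (EPCAM, CDH1, KRT8, KRT18 and KRT19) all had a retained boundary region, and the 3 endothelial ones (PECAM1, VWF and CDH5) had no boundary peak in any list. Of 4 mesenchymal markers VIM, ZEB1 and FN1 had a retained region and CDH2 had no peak. Among blood markers PTPRC had none, CD3E had one in 3 DMSO lists, and CD14 had a retained region. Of 5 lung lineage markers, NAPSA and SFTPC had a retained region, SCGB1A1 had no boundary peak in any list, SFTPB had one only in the HCC44 DMSO lists, and NKX2-1, a lung lineage transcription factor, had one in all 4 H1975 lists and in 1 of the 4 HCC44 lists.

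Gene boundaries kept their peaks far more often than the rest of the genome. Of 13110 merged regions at gene boundaries, 70.9% had a peak in all 8 lists, against 10.3% of the 55968 regions elsewhere. Of 10183 boundary regions with a peak in all 4 DMSO lists, 91.2% also had one in all 4 ACBI1 lists, against 30.6% of 18897 other regions. Only 231 boundary regions had a peak in all 4 DMSO lists and in none of the ACBI1 lists. Because the rule uses the same presence calls, these shares are a description with no test. The retained boundary regions made up 61.7% of the 15070 regions present in all 8 lists, and the other 5779, away from gene boundaries, serve below as the distal retained regions.

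Just outside the rule lay 377 boundary regions with a peak in 7 of the 8 lists. The list that lacked the peak was H1975 ACBI1 replicate 2 in 131 of them, and HCC44 ACBI1 replicates 2 and 1 in 97 and 60. Their median −log10 q, the authors' significance of a peak, was 25.4, against 63.6 for the retained regions. Within the rule, 1171 regions (12.6%) had a −log10 q under 20 in at least 1 list, and lists held no peak below about 10. On the side of distance, 93.8% of the retained regions contained a gene start or end, 199 lay over 500 bp from one, and 338 regions present in all lists lay less than 1 kb beyond the window.

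Most retained boundary regions sat at the start of a gene rather than at its end. Strand was known for 15812 of the 19974 protein-coding genes, from RefSeq's promoter table. Of all retained regions, 7544 (81.2%) overlapped a window at a known gene start and 260 (2.8%) lay at known gene ends only. The other 1487 (16%) were at a gene of unknown strand and at no known start. Of the 7804 regions in the first 2 classes, 96.7% were at a start. Counted by gene, 8664 of 15812 genes (54.8%) had a retained region at their start and 992 (6.27%) at their end, of which 734 had both. A single known start lay in or within 1 kb of 6462 regions. For 739 regions this held for a pair of starts that point away from each other, with a median of 183 bp between them. In 22.9% of the regions a lncRNA gene had a boundary as well, against 17.6% of the distal retained regions.

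The genes with retained boundaries differed widely in share between gene groups, from all Mediator genes to hardly any olfactory receptor. Over all protein-coding genes, 10729 (53.7%) had a retained region at a boundary. The lists named here are described by counts, with no test. Mediator, the coactivator that links transcription factors to RNA polymerase II, had retained regions at 28 of 28 genes. The genes that license replication origins (MCM and ORC) had them at 14 of 15, the exception being ORC1. Mitochondrial ribosomal protein genes had them at 70 of 77, TFIID genes at 19 of 21, translation initiation genes at 49 of 55, respiratory complex I genes at 32 of 36 and aminoacyl-tRNA synthetase genes at 31 of 35. For cytoplasmic ribosomal proteins the count was 72 of 84, for RNA polymerase subunits 28 of 33 and for the proteasome 31 of 39. SWI/SNF subunit genes had a retained region at 25 of 28, the exceptions being ACTL6B and DPF1, which belong to the neuronal form of the complex, and SMARCB1.

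Gene families with narrow tissue use lay at the other end. Of 390 olfactory receptor genes 4 had a retained boundary region, of 28 taste receptor genes 1 (TAS1R1, with 2 regions, one shared with NOL9 and one with ZBTB48), and of 45 defensin genes and 17 type I interferon genes 0. Homeobox HOX genes had 5 of 39, keratins 6 of 55, clustered protocadherins 5 of 53 and chemokines 6 of 45. Zinc finger ZNF genes, at 274 of 509, and solute carriers, at 185 of 379, were near the share of all genes. Listed peaks were not spread over all genes: 1824 genes lay 50 kb or more from any peak of any list, 236 of the olfactory receptor genes, 22 of the defensin genes and 18 of the chemokine genes among them. Among the 18150 genes nearer than 50 kb, 59.1% had a retained region, and the count was 4 of 154 for olfactory receptors and 6 of 27 for chemokines.

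**Figure D1:**
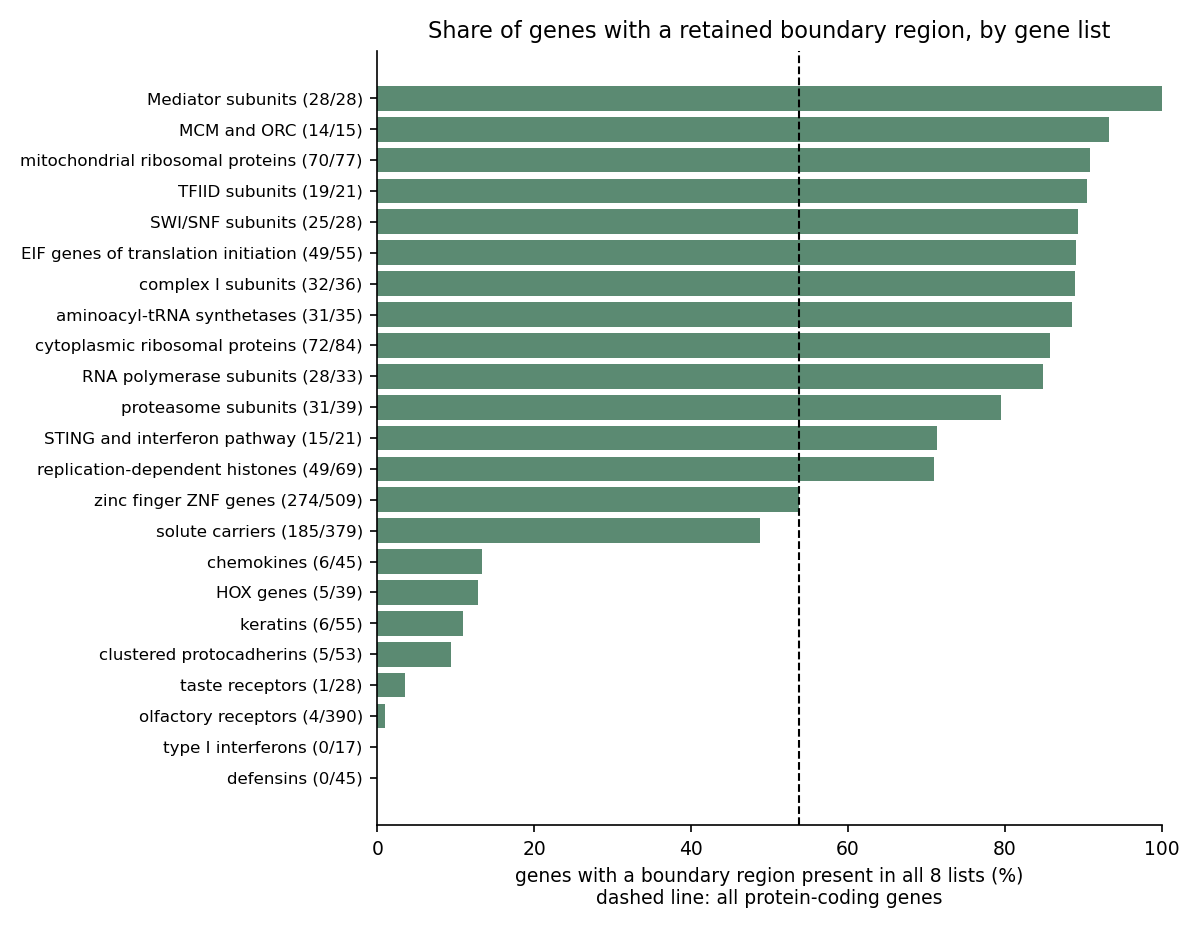
Share of protein-coding genes (horizontal axis, percent) that had a boundary region present in all 8 lists, for 23 gene lists with the number of genes with such a region over the number in the list. The dashed line is the 53.7% of all protein-coding genes; lists of basic cell machinery lie to its right and receptor, defensin and interferon families near 0.

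By chromosome, the share of genes with a retained region was highest on chromosome 16 (60.3%) and chromosome 14 (60.2%) and lowest on chromosome 21 (38.9%) and X (36.6%). Per gene, presence was mostly all or none: 6551 genes had a boundary peak in 0 lists, 10767 in 8 lists and 2656 in 1 to 7.

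Promoters with a retained region were GC rich and CpG rich. Over the 300 bases from 250 before to 50 after the start, the 8664 promoters with a retained region had a median G and C content of 66%, against 57.3% for the 7148 others and 62.7% over all 15812. Their median CpG observed over expected ratio, the number of CpG dinucleotides relative to that from base content, was 0.857 against 0.411 for the others. A ratio of at least 0.6 was found in 88.6% of promoters with a retained region and in 38.1% of the others, against 65.8% of all promoters. When all promoters were ordered by this ratio in groups of 20%, the share with a retained region was 9.93% in the lowest, then 37.7%, 69.9%, 76.9% and 79.6%. These are descriptions of the sequence, with no test.

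Short sequence motifs differed too, searched on both strands of the same 300 bases, with matches allowed to overlap. The GC box (GGGCGG) was present in 73.3% of promoters with a retained region and in 58.5% of all promoters. For the ETS core with flanks (CCGGAAG) the shares were 21.2% and 14.2%, for part of the NRF1 motif (CATGCGC) 8.46% and 5.87%, for the YY1 motif (ATGGCGG) 11.5% and 7.63%, and for TCTCGCG 7.12% and 4.93%. The CCAAT box (CCAAT) hardly differed, at 37.1% and 36.3%. The TATA box (TATAAA) went the other way, at 4.94% and 9.64%, with 15.3% in promoters without a retained region. The AP-1 motif (TGANTCA) was found in 4.04% and in 5.76% of all promoters. In the 81 promoters at boundary regions that had a peak in all DMSO lists and in none of the ACBI1 lists, the AP-1 motif was found in 18.5% and the GC box in 43.2%. The cAMP response element (TGACGTCA) was found in 3.46% of promoters with a retained region against 2.59% of all, and the E box (CACGTG) in 10.8% against 8.87%. A match describes letters in this window and not a bound site, and GC-rich motifs follow base content.

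The retained boundary regions were narrower with ACBI1 than with DMSO. The median covered length of a region was 1148 and 1086 bp in the H1975 DMSO samples, against 1063 and 855 bp in the H1975 ACBI1 samples. In HCC44 the DMSO samples had 1250 and 1246 bp and the ACBI1 samples 1024 and 1009 bp. In each line both ACBI1 samples lay below both DMSO samples. The log2 change was −0.23 in H1975, against an SD between replicates of 0.16, and −0.30 in HCC44, against 0.011. Over both lines it was −0.26 against an SD of 0.12 (p = 0.0556, two-sided exact permutation within lines, where 36 arrangements allow no lower p). The H1975 change was −0.07 when ACBI1 replicate 2 was left out and −0.39 when ACBI1 replicate 1 was, so its size rested on which of these samples was used.

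By the median, the distal retained regions narrowed by about as much, though a smaller share of them narrowed region by region, as given below. Their median covered length was 797 and 739 bp with DMSO, against 777 and 564 bp with ACBI1 in H1975, where the groups overlapped, and 907 and 914 bp against 733 and 736 bp in HCC44. The change of the boundary regions minus that of the distal regions was −0.00044 on the log2 scale, against an SD between replicates of 0.055 (exact permutation test, two-sided, p = 1). A minimum −log10 q of 20, a minimum fold enrichment of 5 and a cover of 50% each gave a difference of −0.065 to −0.08 with the smallest possible p of 0.0556. The boundary regions were wider than the distal regions in every sample. Between lines, the width in HCC44 minus that in H1975 was 0.13 (log2), against an SD between replicates of 0.12 (two-sided exact permutation within treatments, p = 0.167, smallest possible 0.0556). Within DMSO it was 0.16 and the samples of the lines did not overlap, and within ACBI1 it was 0.093 and they did. The difference in narrowing between the lines (HCC44 less H1975) was −0.068, less than the SD of 0.12 between replicates, and was not tested.

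**Figure D2:**
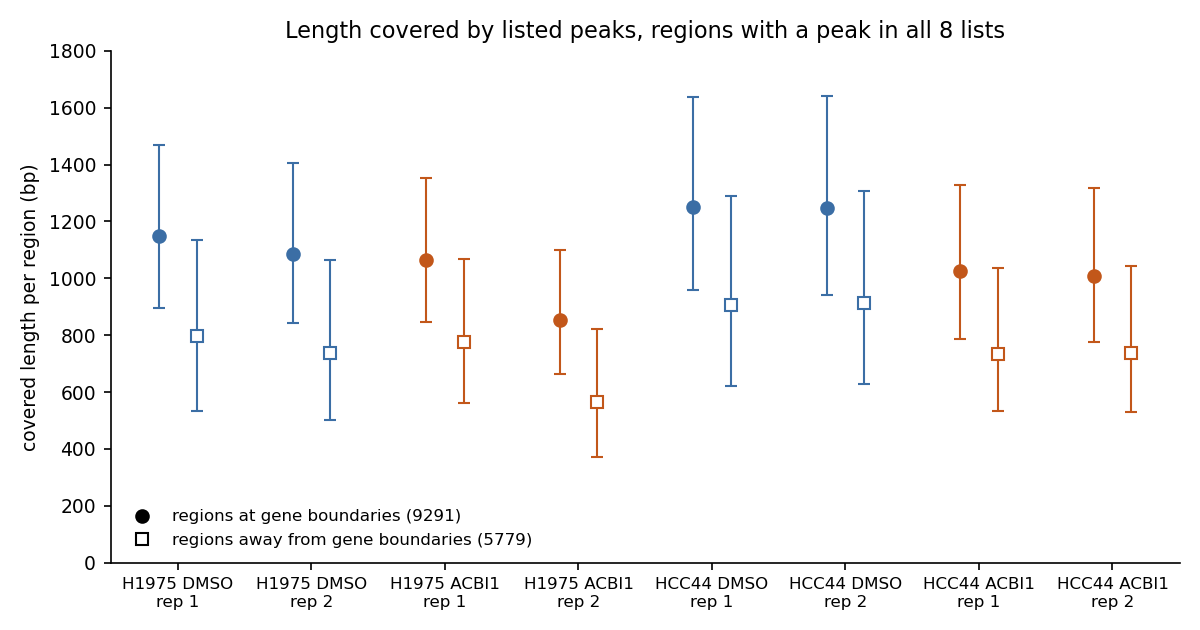
Length covered by listed peaks (vertical axis, bp) in each of the 8 samples, as the median over regions (points) with the lower and upper quartiles (bars), for the 9291 boundary regions (filled) and the 5779 distal retained regions (open). DMSO is blue and ACBI1 orange; in each line the ACBI1 medians of boundary regions, 1063 and 855 bp and 1024 and 1009 bp, lie below the DMSO medians.

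As distal peaks became fewer, boundary regions took a larger part of what remained listed. They held 37.6% and 40.5% of the covered length with DMSO in H1975 and 48.8% and 57.9% with ACBI1, and in HCC44 31.3% and 30.4% with DMSO and 48.9% and 49.4% with ACBI1. Since the rule keeps these regions in every list, this rise of 16.3 percentage points over both lines (SD between replicates 3.39) is a description with no test. Ranked by −log10 q among the regions present in all 8 lists, the median boundary region lay at percentile 58.7 and 59.7 with DMSO and 61.9 and 62.2 with ACBI1 in H1975, and at 55.2 and 55.4 with DMSO and 60.9 and 61.6 with ACBI1 in HCC44.

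The narrowing was larger on the side of the gene body. This was measured in the 5890 regions that contained exactly 1 gene start, as the distance from that start to the outer edge of the peaks on each side. The downstream edge, inside the gene, lay at a median of 662 and 625 bp with DMSO, against 564 and 438 bp with ACBI1 in H1975. In HCC44 it lay at 693.5 and 688 bp with DMSO, against 534 and 531 bp with ACBI1. The groups did not overlap in either line. The change was −142.5 bp in H1975 and −158.2 bp in HCC44, which is −22.1% and −22.9% of the DMSO distance, and −150.4 bp over both lines (SD between replicates 46.5 bp, p = 0.0556 by two-sided exact permutation, the lowest value available). Without H1975 ACBI1 replicate 2 the H1975 change was −79.5 bp.

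The upstream edge moved less. It lay at a median of 411 and 392 bp with DMSO, against 443 and 358 bp with ACBI1 in H1975, where the groups overlapped, and at 462 and 459 bp against 426 and 418 bp in HCC44, where they did not. The change was −1 bp in H1975 and −38.5 bp in HCC44, −0.249% and −8.36% of the DMSO distance, and −19.8 bp over both lines (SD between replicates 30.9 bp, exact permutation test, two-sided, p = 0.389). The small H1975 value averages 2 samples that differed in direction: it was 42.5 bp without ACBI1 replicate 2 and −43.5 bp without ACBI1 replicate 1, and over both lines 1.38 bp without ACBI1 replicate 2. The upstream change minus the downstream change was 130.6 bp (SD between replicates 16 bp, p = 0.0556 by two-sided exact permutation, the lowest value available). It was 141.5 bp in H1975 and 119.8 bp in HCC44, and 122 bp in H1975 without ACBI1 replicate 2. The start itself lay between the outer edges of the sample's peaks in 94.8% to 97.3% of these regions in every sample.

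**Figure D3:**
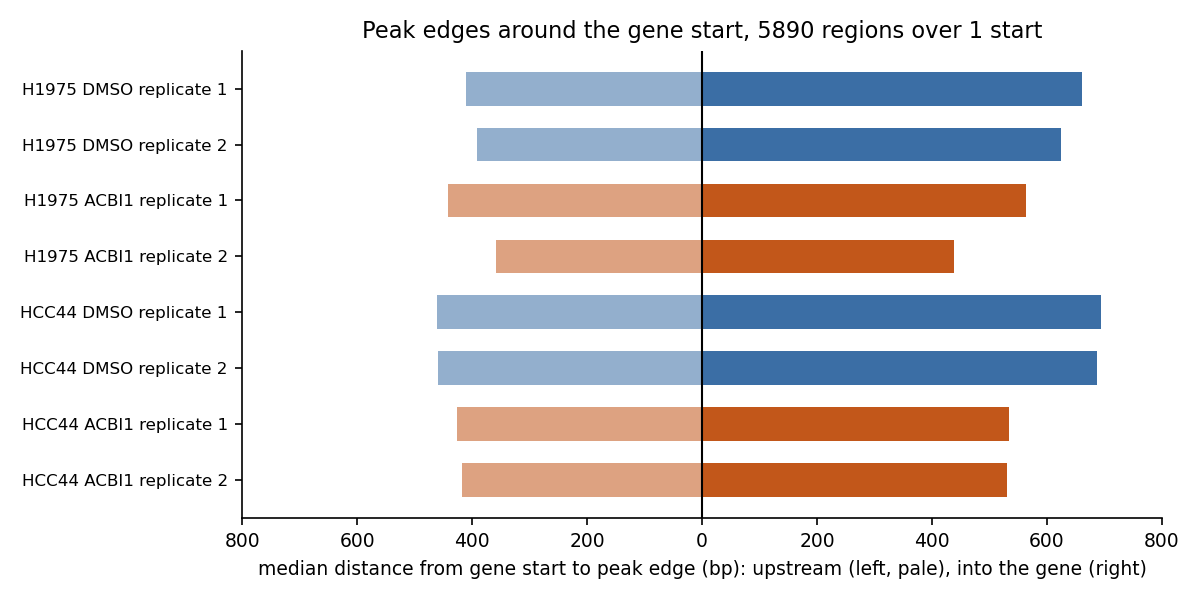
Median distance (bp) from the gene start to the upstream edge (left, pale) and the downstream edge (right) of the listed peaks in 5890 regions over 1 gene start, 1 bar per sample, DMSO blue and ACBI1 orange. The right side shortens from 662 and 625 bp to 564 and 438 bp in H1975 and from 693.5 and 688 bp to 534 and 531 bp in HCC44, and the left side changes less.

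Region by region the sides differed as well. In each line, both ACBI1 samples had the downstream edge nearer to the start than either DMSO sample in 3097 of the 5890 regions (52.6%), and the upstream edge in 921 (15.6%). The reverse order, farther with ACBI1, was found for the downstream edge in 75 regions (1.27%) and for the upstream edge in 535 (9.08%). Both edges were nearer in 401. These comparisons cover the boundary regions alone, so these shares are also the background over all regions compared.

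The difference between the sides was present in each subset examined. On the plus strand (3035 regions) the downstream change was −144 bp in H1975 and −159.5 bp in HCC44, and the upstream change 0 and −38.5 bp. On the minus strand (2855 regions) the downstream changes were −140 and −160 bp and the upstream changes −2 and −38.5 bp. Regions without a lncRNA boundary gave −141 and −152.5 bp downstream and 6.5 and −32 bp upstream, and those with one gave −145.5 and −184 bp downstream and −40.5 and −55.5 bp upstream. For genes of 10 kb or less the downstream changes were −121 and −139.8 bp, and for longer genes −146.5 and −164 bp. The 20% of regions with the lowest CpG ratio gave −119.2 and −150.2 bp downstream, and the 20% with the highest gave −169 and −186.2 bp. The 1964 regions widest with DMSO gave −275.2 and −331.5 bp downstream, and their upstream edge shortened too, by −50.5 and −109.8 bp. The 1963 narrowest with DMSO gave −90.5 and −83.5 bp downstream and 16.5 and −8 bp upstream. These 2 subsets were chosen on DMSO lengths, which also enter the changes. On the same regions without H1975 ACBI1 replicate 2, the H1975 changes in all these subsets ran from −180.2 to −47 bp downstream and from 7.75 to 45.5 bp upstream. The upstream edge then lay farther out with ACBI1.

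Regions with a pair of starts pointing away from each other have a gene body on both sides, and both sides shortened. In 713 such regions the edge in the minus-strand gene lay at 513 and 481 bp from its start with DMSO and at 440 and 338 bp with ACBI1 in H1975, and at 532 and 526 bp against 424 and 408 bp in HCC44. The edge in the plus-strand gene lay at 493 and 457 bp with DMSO, against 416 and 311 bp with ACBI1 in H1975, and at 522 and 522 bp against 410 and 381 bp in HCC44. The changes, from −108 to −126.5 bp, were −21.4% to −24.2% of the DMSO distances, and the groups overlapped for neither edge in either line. Without H1975 ACBI1 replicate 2 the H1975 changes were −57 and −59 bp.

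**Figure D4:**
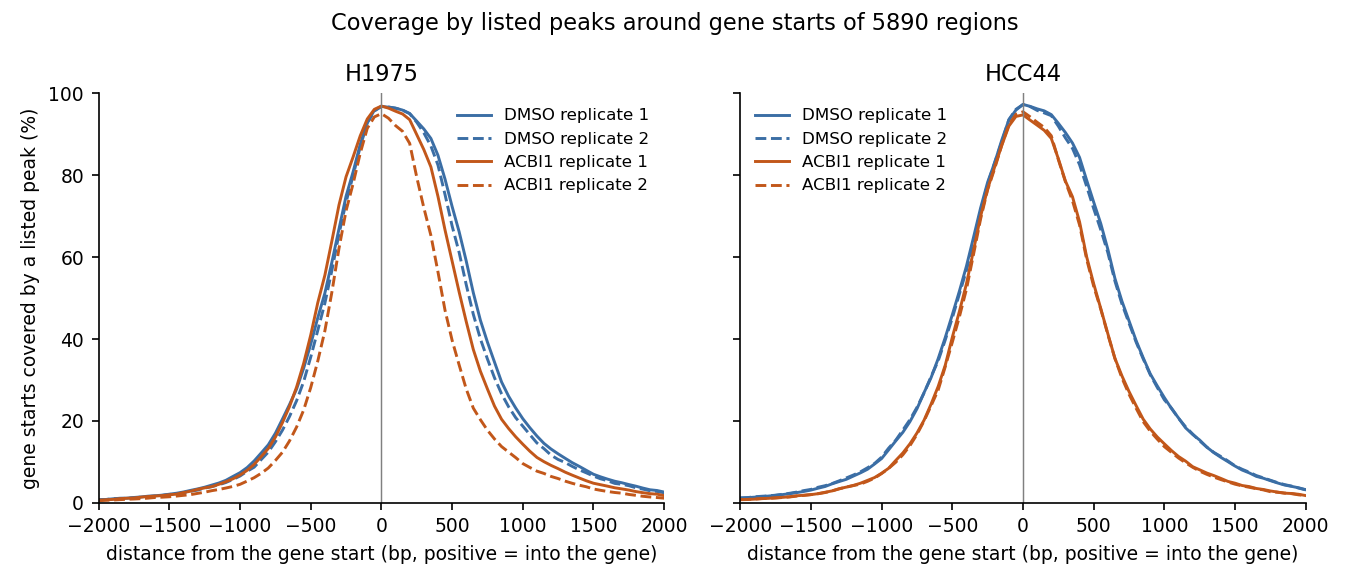
Percent of 5890 gene starts (vertical axis) whose surroundings lie between the outer edges of the region's listed peaks at each distance from the start (horizontal axis, bp, positive into the gene), 1 line per sample, with replicate 2 dashed. Gaps between peaks of 1 region count as covered. The DMSO (blue) and ACBI1 (orange) curves lie closest on the left of the start and separate on its right.

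To see which regions changed beyond the general narrowing, each covered length was divided by its sample's median over the 15070 regions present in all lists. This division did not centre the changes: over all 15070 the median scaled log2 change was 0.0652 in H1975 and 0.0938 in HCC44. Scaled calls of wider regions carry that upward shift. On this scale 943 boundary regions (10.1%) were narrower in every ACBI1 sample than in either DMSO sample of the same line, for each line, against 10.3% of all 15070. Wider on the same scale were 1749 (18.8%), against 22.2% of all, and 2940 when H1975 ACBI1 replicate 1 was left out. With a scaled log2 change of at least 0.5 in each line, 174 were narrower and 55 wider. The shares of all 15070 regions at that size, or without H1975 ACBI1 replicate 1, were not computed. These counts are therefore not read as a result about boundary regions. In base pairs, without the division, 3873 (41.7%) were narrower, against 35.8% of all, and 113 (1.22%) were wider, against 2.72%. Among the distal retained regions alone, the scaled shares were 10.6% narrower and 27.7% wider. In base pairs the distal shares were 26.4% narrower and 5.14% wider. The scaled counts were therefore near the background for narrowing and somewhat below it for widening. The scaled changes in H1975 and in HCC44 had a Pearson correlation of 0.414 across the 9291 regions, which share their libraries within each line and are not independent.

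The 6 boundary regions with the strongest scaled narrowing all lay at gene starts. At ANXA11, which encodes a calcium-dependent membrane-binding annexin, the covered length was 2423 and 2379 bp with DMSO, against 810 and 716 bp with ACBI1 in H1975, and 2333 and 2364 bp against 451 and 412 bp in HCC44. At SLC1A5, a glutamine transporter gene, it was 2679 and 2573 bp against 1040 and 507 bp in H1975 and 3976 and 3961 bp against 1312 and 778 bp in HCC44. At CKAP4, which encodes a membrane protein of the endoplasmic reticulum, it was 2791 and 2523 bp against 1421 and 292 bp, and 3394 and 3353 bp against 1141 and 1051 bp. The groups were far apart at all 3, and the scaled log2 changes averaged −1.79 at ANXA11, −1.66 at SLC1A5 and −1.57 at CKAP4.
The others were STK24, a protein kinase gene (−1.66), ZNF185, which encodes a LIM domain protein (−1.56), and ANKRD53 (−1.47). At STK24 the H1975 values, 1103 and 1411 bp with DMSO, against 997 and 164 bp with ACBI1, were set apart mostly by replicate 2. Some narrower regions ranked higher by the authors' significance: at SLC1A5 the −log10 q percentile was 8.81 and 10.7 with DMSO and 38.2 and 59.1 with ACBI1 in H1975, and 6.44 and 6.58 against 35.4 and 39.8 in HCC44. The deposited −log10 q is 1 value for the whole of a listed peak.

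Several of the 6 with the strongest scaled widening lay at gene ends. SOX13 (a transcription factor gene, mean scaled log2 change 1.3) lay at the end of a gene. So did SNX5 (a sorting nexin, 1.27) and RAB3IL1 (a Rab exchange factor, 1.24). FXYD1/FXYD7 (modulators of the sodium pump, 1.27) lay at the end of FXYD1 and at a boundary of FXYD7, whose strand was not in the table. SLC12A5 (a neuronal potassium chloride transporter, 1.24) lay at a start, and the strand of HOXC10 (1.14) was not in the table. At SOX13 the covered length was 559 and 603 bp with DMSO, against 1892 and 715 bp with ACBI1 in H1975, and 1002 and 839 bp against 1894 and 1998 bp in HCC44. At SNX5 it was 307 and 479 bp against 1609 and 888 bp, and 1447 and 1697 bp against 1949 and 2115 bp. At SLC12A5 the H1975 samples hardly differed in base pairs, with 1540 and 1551 bp against 1579 and 1555 bp, while HCC44 went from 334 and 272 bp to 1161 and 1164 bp.
Over all 260 regions at gene ends only, 39.6% were wider and 4.23% narrower on the scaled measure, and at the 7544 at gene starts 17.6% and 10.2%. The 739 regions at a pair of starts pointing away from each other showed the opposite balance, with 10% wider and 15.6% narrower. These shares are set beside the 22.2% and 10.3% over all regions and were not tested.

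**Figure D5:**
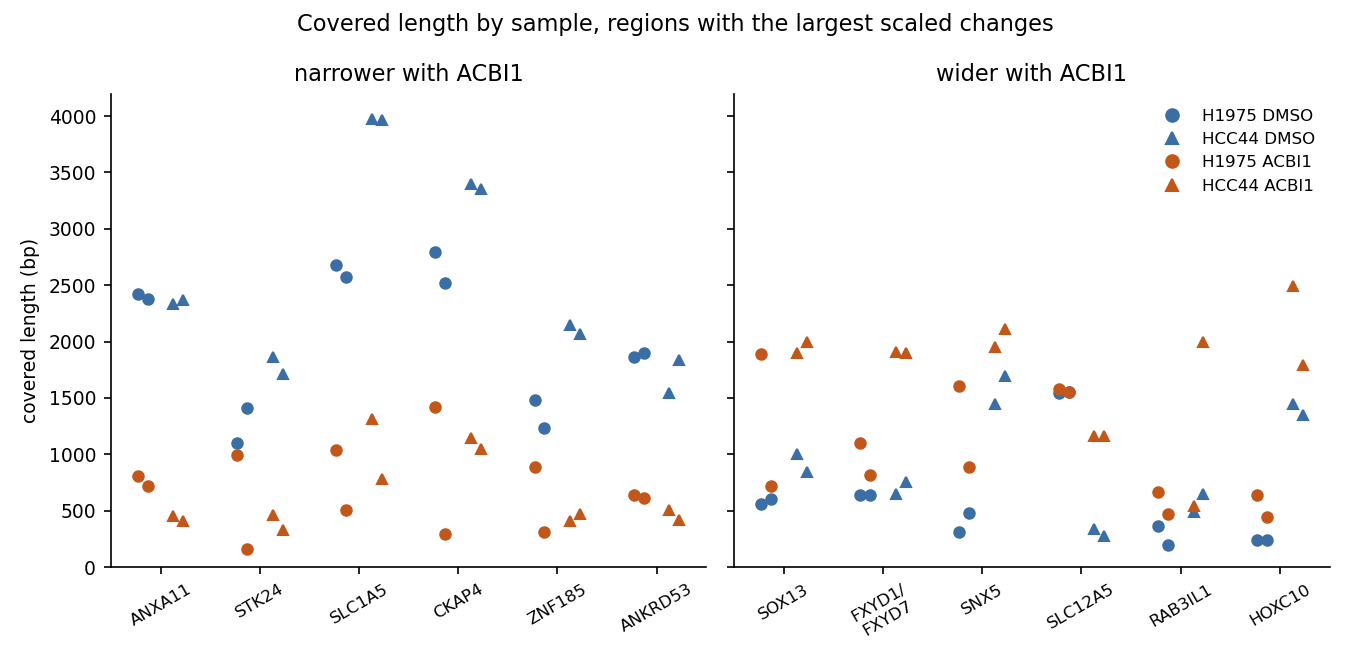
Covered length (vertical axis, bp) in each of the 8 samples at the 6 boundary regions with the strongest scaled narrowing (left) and the 6 with the strongest scaled widening (right), circles for H1975 and triangles for HCC44, DMSO blue and ACBI1 orange. At ANXA11 the DMSO samples lie from 2333 to 2423 bp and the ACBI1 samples from 412 to 810 bp; the right panel was ranked on scaled lengths, so that at RAB3IL1 the HCC44 groups overlap in base pairs.

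Promoters of narrower and wider regions differed in a few motifs. The ETS core with flanks was found in 26.7% of the 921 promoters at narrower regions and in 17.8% of the 1469 at wider ones, against 21.2% over all retained promoters. TCTCGCG was found in 10.5% and 5.65%. Regions at a pair of starts pointing away from each other were more often narrower than wider. Of the 1509 promoters at such regions, 29.4% held the ETS core, and their part in this difference was not tested.

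The genes of the 3 degraded proteins all had a retained region, which the rule fixes to be present in every sample. At SMARCA2 the covered length was 2981 and 3055 bp with DMSO, against 2747 and 1938 bp with ACBI1 in H1975, and 3195 and 2995 bp against 3029 and 2818 bp in HCC44. At SMARCA4 it was 1414 and 1384 bp against 1285 and 1061 bp in H1975 and 1374 and 1752 bp against 904 and 1073 bp in HCC44. The ACBI1 samples lay lower in both lines, as they did in 41.7% of all retained boundary regions. On the scaled measure SMARCA4 changed by −0.04 in H1975 and −0.36 in HCC44. The start of PBRM1, which it shares with GNL3, a nucleolar protein gene, had 944 and 851 bp against 765 and 740 bp, and 862 and 719 bp against 727 and 670 bp, with overlapping groups in HCC44.

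The 28 retained regions at the 25 SWI/SNF genes changed by −0.35 in H1975 and −0.48 in HCC44 (log2 of the median covered length), beside −0.23 and −0.30 for all retained boundary regions. On the scaled measure 3 of the 28 (10.7%) were narrower and 0 wider, against 10.3% and 22.2% of all regions, so the share of narrower regions was that of the background. The 3 were named after their values were seen: the end of BCL7A, the start of BICRA, and the end of SS18L1, which is also the start of MTG2, a mitochondrial GTPase gene. At BICRA, a subunit of the non-canonical form of the complex, the covered length was 1288 and 1283 bp with DMSO, against 816 and 789 bp with ACBI1 in H1975, and 2274 and 2243 bp against 741 and 721 bp in HCC44. The BCL7A region had 2389 and 2212 bp with DMSO, against 461 and 435 bp with ACBI1 in HCC44, and its scaled log2 change was −2.07 there and −0.62 in H1975. The MTG2/SS18L1 region changed by −0.39 in H1975 and −0.30 in HCC44 on the scaled measure.

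The series title names the STING pathway, which senses cytosolic DNA and induces interferon genes, and 15 of 21 genes of that pathway and the interferon response had a retained boundary region. Of their 17 regions, 2 were narrower and 1 wider on the scaled measure, named here after their values were seen. At STING1, the adaptor of the pathway, the covered length was 1577 and 1570 bp with DMSO, against 1185 and 183 bp with ACBI1 in H1975, and 1392 and 1212 bp against 847 and 683 bp in HCC44. The groups did not overlap in either line, and the scaled log2 change was −1.53 in H1975, where it rested largely on replicate 2, and −0.48 in HCC44. IKBKE, a kinase of the interferon response, went from 1734 and 1512 bp to 1165 and 269 bp and from 1458 and 1369 bp to 1006 and 975 bp. At ISG15, an interferon-induced ubiquitin-like protein gene, the lengths were 1419 and 1346 bp against 1366 and 1278 bp in H1975 and 1427 and 1500 bp against 1396 and 1449 bp in HCC44, wider only relative to the narrowing of the other regions. CGAS, the DNA sensor, had 1670 and 1810 bp against 1667 and 1058 bp, and 2102 and 2033 bp against 1592 and 1564 bp. The share of narrower regions, 11.8%, was near the 10.3% of all regions, and that of wider ones, 5.88%, below the 22.2%, from 1 region.

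Other lists are given beside the changes of −0.23 and −0.30 over all retained boundary regions and beside the 10.3% narrower and 22.2% wider of all regions on the scaled measure. The 85 regions at cytoplasmic ribosomal protein genes changed by −0.19 in H1975 and −0.30 in HCC44, with 14 (16.5%) narrower and 12 (14.1%) wider. The 29 at Mediator genes changed by −0.40 and −0.21, with 5 (17.2%) narrower and 3 (10.3%) wider. The 275 at ZNF genes, many of which encode DNA-binding repressors, changed by −0.17 and −0.19, with 13 (4.73%) narrower and 66 (24%) wider. The 31 regions at replication-dependent histone genes, which are clustered and short, had a median covered length of 1724.2 bp as a mean over samples and changed by −0.13 and −0.045, with 1 (3.23%) narrower and 10 (32.3%) wider. Lists with 6 or fewer regions spread widely: the 6 at chemokine genes changed by −0.30 and −0.61, the 5 at keratin genes by −0.18 and 0.064, and the 3 at HOX genes by 0.057 and 0.41.

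The widest retained boundary regions, ordered by the mean log2 covered length, were led by MYC and FLRT2. The region at MYC, the growth-promoting transcription factor gene, covered 4667 and 4675 bp with DMSO, against 3466 and 2968 bp with ACBI1 in H1975, where it was listed as 2 peaks in each ACBI1 sample, and 4690 and 4662 bp against 3404 and 4658 bp in HCC44. The next were FLRT2, which encodes a cell surface adhesion protein, the ALOXE3/HES7 region, the NEK8/RPL23A/TLCD1 region, PIP5K1A, a lipid kinase gene, and ZFP36L1, an mRNA decay factor gene. FLRT2 varied most, from 1993 to 5155 bp, while others hardly varied: ZFP36L1 lay between 3279 and 3447 bp and the NEK8/RPL23A/TLCD1 region between 3802 and 3929 bp in the 8 samples.
The highest mean −log10 q percentiles were those of BRMS1L, a subunit of the SIN3 histone deacetylase complex, WDR89, FIS1, a mitochondrial fission factor gene, MYC, EXD2, an exonuclease gene, and FAM220A/SMIM10L3. BRMS1L lay at percentile 99 to 100 in all 8 samples. These strong peaks need not be wide: EXD2 covered between 703 and 733 bp in every sample. The weakest were MAP6, a microtubule-associated protein gene, CCDC184, the start of KCND1, a potassium channel gene, and WNT10B, a Wnt ligand gene, all under percentile 4 in every sample.

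Between the lines, 784 boundary regions (8.44%) were wider on the scaled measure in all 4 HCC44 samples than in all 4 H1975 samples, against 9.69% of all regions present in the 8 lists. Wider in H1975 were 1141 (12.3%), against 11.6%. The most different towards HCC44 was LPAR1, a lysophosphatidic acid receptor gene, with 361, 372, 253 and 170 bp in H1975, against 2403, 2448, 1237 and 2452 bp in HCC44. SNAP25, a membrane fusion protein gene, had 281, 308, 363 and 233 bp against 2284, 2284, 1625 and 1712 bp, and COL27A1 and CCDC85A followed. Towards H1975 the most different was SEMA5A, a semaphorin gene, with 2142, 1317, 1974 and 840 bp in H1975, against 274, 312, 398 and 306 bp in HCC44. APLP1, a relative of the amyloid precursor protein gene, had 1753, 1808, 1872 and 1808 bp against 435, 455, 525 and 330 bp. In these quadruples the first 2 values are DMSO and the last 2 ACBI1, and the lines do not overlap at any of the 4 genes.

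The largest number of protein-coding genes at 1 retained region was 4, reached at 5 regions. The LOC128706665/LOC128706666/MKKS/SLX4IP region, with 4 gene starts, covered between 1657 and 1892 bp in the 8 samples. The GALNT4/POC1B/POC1B-DUSP6/POC1B-GALNT4 region covered between 1718 and 1798 bp. The EIF3G/P2RY11/PPAN/PPAN-P2RY11 region went from 1774 and 1618 bp to 3288 and 2617 bp in H1975 and from 1903 and 1381 bp to 2504 and 2214 bp in HCC44. It was wider with ACBI1 in base pairs in both lines. The other 2 regions lay at EME2/MAPK8IP3/MRPS34/NME3 and EIF6/MMP24/MMP24-AS1-EDEM2/MMP24OS, some of which are read-through genes that share their start with a neighbour.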

How the data were processed

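ATAC-seq peak lists of 8 samples were analysed. Reads were aligned with BWA to hg38, per the submitters' processing notes. The peak caller, its filters and all versions are not given in the sources used here. Each deposited list held 1 row per peak, called per sample. In the layout of these lists the deposited columns are a score, which was not used, the authors' fold enrichment (a ratio over background) and their p-value and q-value as −log10. Fold enrichment and −log10 q were used only to rank or filter peaks within a list. The lowest −log10 q of a list lay between 10 and 10.2.

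Gene positions and promoter sequences came from RefSeq tables of GRCh38.p14. Of 19974 protein-coding genes, 79.2% matched the promoter table, which gave their strand. Tables were joined by gene ID. Covered length is the number of base pairs of a region within a sample's peaks. Changes are ACBI1 minus DMSO within each line, averaged over lines, and were tested by exact permutation of treatments within lines (36 arrangements over both lines, 6 within 1, with smallest p of 0.0556 and 0.333), so no test can pass 0.05, and changes are read against replicate SDs. Regions are not replicates, and no p-value was computed across them.

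The regions named are those with the largest covered length, the highest and lowest −log10 q percentile, the largest scaled changes with treatment and between lines and the most genes, with up to 3 genes per list in alphabetical order and the ACBI1 targets. Members, lists and rules were chosen with earlier results of these data known. Alternatives were a minimum −log10 q of 20, a minimum fold enrichment of 5, windows of 500 bp and 5 kb, joining at 1200 bp, a cover of 50%, means in place of medians, unscaled lengths, a smallest change of 0.5, leaving out each replicate in turn, and a replicate block. Counting only genes under 50 kb from a listed peak was added after seeing the data. Computation used Python 3.11.15, numpy 2.4.6 and pandas 2.3.3, and figures matplotlib 3.10.9. The functions for merging peaks, finding members, covered length and permutation were first tested on simulated data. The edge distances were not part of that test. The result of 1 marker gene is not reported here.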

Additional observations from a re-analysis of the deposited data

Results flagged for a closer look

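The search covered the named regions except those named only as examples of a gene list. At 2 of the regions searched, every ACBI1 sample of one line lay on one side of that line's DMSO samples on the scaled length. Every ACBI1 sample of the other line lay on the opposite side of its own DMSO samples. At LOC107984156 the scaled log2 change was 0.24 in H1975 and −2.17 in HCC44, a difference of −2.4 between the lines. The covered length there was 3486 and 3145 bp in the H1975 DMSO samples, 3528 and 3169 bp in the H1975 ACBI1 samples, and 2631 and 2624 bp against 606 and 377 bp in HCC44. The region also overlaps MYO1C, which encodes an unconventional myosin. At SMARCA2 the change was −0.16 in H1975 and 0.21 in HCC44, a difference of 0.37. Neither difference between lines was tested. Of the gene list examples left out of the search, SLC10A7 had scaled log2 changes of −0.58 in H1975 and 0.24 in HCC44, also not tested. Groups of 2 samples were too small for a test of outlying samples.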

How the results depend on the processing

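The comparisons rest on 2 samples per group of unknown depth, peaks of unknown calling settings, and gene starts taken from an annotation rather than mapped in these cells. Of 116 values under other settings, 89 moved by less than 1 SD between replicates (or, for counts, stayed within 1.5 times), 27 moved further, and none whose change exceeded the SD between replicates turned its sign. In 5 of the 116 a smaller change turned its sign: the difference from distal regions, −0.000444, became 7.84e-06 with windows of 500 bp, 0.0204 with windows of 5 kb and 0.0108 with peaks joined, and the H1975 upstream edge change of −1 bp became 2 bp with a minimum fold enrichment of 5 and with a cover of 50%. Leaving out 1 replicate turned the sign of 8 values, all of the upstream edge change or the difference from distal regions. A minimum fold enrichment of 5 left 3237 regions, 2722 at a gene start, with 377 narrower and 536 wider, a width change of −0.238 in HCC44, a difference from distal regions of −0.0669, and an upstream minus downstream edge change of 114.6 bp. A minimum −log10 q of 20 gave −0.281 in HCC44 and −0.0649 for the difference from distal regions. A cover of at least 50% gave −0.199 and −0.0798, with 898 regions wider and an edge difference of 101.2 bp. Without scaling 3873 were narrower and 113 wider, and with a smallest change of 0.5 there were 174 and 55. Of genes nearer than 50 kb to a peak 59.1% had a retained region, an alternative chosen after seeing the data. The cause of these shifts was not tested. For narrower and wider regions, the share over all regions was computed only with the main setting and without scaling. Leaving out 1 replicate at a time gave 9286 to 9422 regions, 7541 to 7617 at gene starts, 1046 to 1347 narrower and 1901 to 2940 wider, width changes of −0.341 to −0.184 over both lines, −0.386 to −0.07 in H1975 and −0.308 to −0.287 in HCC44, −0.0193 to 0.0386 for the difference from distal regions, and edge changes of −182.1 to −119.1 bp downstream, −40.8 to 1.38 bp upstream and 120.5 to 141.4 bp for their difference. With a replicate block the width change over both lines was again −0.262, with p = 0.125 (exact permutation, 16 arrangements), the smallest possible. Same-numbered samples deviated together with a correlation of 0.16 in H1975 and 0.0306 in HCC44 across regions, and with only 2 pairs a line the numbers are not shown to pair samples.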

Other observations

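Several genes of basic cell machinery that lacked a retained boundary region lay in long stretches with no listed peak in any sample. The stretch with the most genes ran on chromosome 6 from position 29752763 to 33539954 (GRCh38), the major histocompatibility complex. It spans 3.79 Mb with 147 protein-coding genes, and no list held a peak in it. VARS1 and VARS2 (valine tRNA synthetases), RPS18 (a ribosomal protein), MRPS18B (a mitochondrial ribosomal protein), PSMB8 and PSMB9 (immunoproteasome subunits) and POLR1H (an RNA polymerase I subunit) lie inside. Of the 6551 genes without a boundary peak in any list, 27.8% lay 50 kb or more from any listed peak. The absence of a retained region at these genes is therefore not a measurement of their promoters, and why the stretches hold no listed peak was not tested. Leaving out genes 50 kb or more from any peak, 30 RNA polymerase subunit genes remain, of which 93.3% had a retained region, against 84.8% of all 33. For aminoacyl-tRNA synthetases the shares were 93.9% and 88.6%, and for cytoplasmic ribosomal proteins 90% and 85.7%.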
